A study of Mus musculus with 16 samples.

Results

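The RNA of the SR proteins and of the heterogeneous nuclear ribonucleoproteins (hnRNPs), the main families of proteins that choose which exons of a transcript are kept, was examined in sorted colonic epithelial cells of 16 mice. The genes were taken by symbol: Srsf followed by a number, any symbol starting with Hnrnp, and Tra2b. This gave 32 of the 22396 gene symbols listed, 12 of them SR genes with Tra2b and 20 hnRNP genes, and 49 of 28988 listed transcripts. The choice by symbol used no measured value, but it was made with earlier results of these data known. Listed transcripts are those annotated as principal isoforms, and other isoforms of these genes were not analysed here. In 22 genes 1 transcript was listed, and in 10 genes several.

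SR proteins bind exons through RNA recognition motifs and draw the spliceosome to nearby splice sites through a tail rich in arginine and serine, which kinases of the Srpk and Clk families phosphorylate. hnRNPs coat nascent transcripts and often act against SR proteins, by covering splice sites or looping out exons. Many genes of both families also splice their own transcripts to carry a short conserved exon with a stop codon, called a poison exon, which sends that transcript to nonsense-mediated decay and lowers the protein made.

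The study asked what the tumor necrosis factor receptor TNFR2, encoded by Tnfrsf1b, does in the epithelium of the injured mouse colon. Controls carried the floxed receptor gene without Cre (Tnfr2-f/f), and the mice called Tnfr2ko carried it with Vil1::Cre, in which the villin promoter drives Cre recombinase in intestinal epithelium, so that all 16 mice carried floxed alleles. Dextran sulfate sodium (DSS), which injures the colonic epithelium, was given in drinking water at 3% for 6 days per the labels, other mice drank water, and the labels place dissection at day 12. The methods of the study give a higher concentration and place the uninjured mice at the start. EpCAM+ cells of the distal colonic mucosa were sorted, and each mouse gave 1 polyA RNA library. There were 4 water controls, 5 water Tnfr2ko mice, 3 DSS controls and 4 DSS Tnfr2ko mice. The Vil1-Cre line was a B6 congenic, and the strain of the crossed mice is not given in the sources used here. DSS-treated mice were all female and came from cages c and d, and water-treated mice came from cage a (males) and cage b (females). No cage held both treatments, so treatment and cage cannot be told apart.

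Values are TPM, a transcript's share of a library's transcripts corrected for its length, which can be compared between genes. The mean over mice of the natural log of the estimated counts was listed for 45 of the 49 member transcripts after DSS, where it corresponded to between 5.67 and 2103 counts (median 273), and for 43 in water-treated mice, with 2.86 to 624 counts (median 86.0), so low members rest on few reads. All 8 epithelial markers were at 1 TPM or more in every library. The 14 leukocyte markers summed to between 1738 and 14848 TPM in water-treated mice and between 27.2 and 497 TPM in DSS-treated mice. Jchain, the joining chain of secreted antibodies, made up over 50% of this sum in 8 of 9 water-treated and 4 of 7 DSS-treated mice. The 10 proliferation markers summed to between 153 and 291 TPM in water-treated and between 302 and 465 TPM in DSS-treated mice. In bulk libraries, fewer cells of a type and less RNA per cell cannot be told apart. Tnfrsf1b was not lower in the libraries labelled Tnfr2ko after DSS, at 13.5 to 27.0 TPM against 13.3 to 22.2 TPM in controls. In water-treated mice it stood at 9.23 to 14.8 TPM against 11.1 to 15.5 TPM. The study reported reduced TNFR2 protein in EpCAM+ cells of mice with this deletion by flow cytometry, and similar results by RT-qPCR. The floxed allele has loxP sites around an exon, not around the whole gene. Whether listed reads lie inside the deleted part was not tested. DSS control 3, from cage c, stood apart from the other DSS-treated mice, with the highest level in 32.9% and the lowest in 24.6% of 10899 genes. Values without it are given beside some of the results that it moved.

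Together the SR genes summed to 386 to 407 TPM in water controls, 372 to 398 TPM in water Tnfr2ko mice, 516 to 583 TPM in DSS controls and 514 to 588 TPM in DSS Tnfr2ko mice. The hnRNP genes summed to 676 to 819, 739 to 893, 986 to 1337 and 1102 to 1310 TPM in the same groups. In both families every DSS-treated mouse thus lay above every water-treated mouse of the tables as deposited. The tables were normalized separately, and after rescaling all 16 mice together by median-of-ratios factors the sums overlapped. The SR sums were then 403 to 444 TPM in water-treated and 416 to 514 TPM in DSS-treated mice, and the hnRNP sums 741 to 973 and 855 to 1109 TPM, with 3 and 4 of the 7 DSS-treated mice above all water-treated mice. The members made up 0.139% to 0.247% of the TPM listed for a water-treated mouse and 0.232% to 0.300% for a DSS-treated mouse.

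The SR gene with the highest mean level was Srsf5, whose protein has been studied in pre-mRNA splicing and mRNA export. It stood at 150, 153, 120 and 174 TPM in water controls, at 141, 114, 145, 159 and 150 TPM in water Tnfr2ko mice, at 102, 138 and 158 TPM in DSS controls and at 110, 141, 136 and 85.5 TPM in DSS Tnfr2ko mice. All 4 groups overlapped. Srsf2, also known as SC35 and used as a marker of nuclear speckles, came next. It stood at 96.8, 85.3, 102 and 75.5 TPM in water controls, at 99.3, 88.6, 97.1, 85.5 and 82.2 TPM in water Tnfr2ko mice, at 129, 134 and 144 TPM in DSS controls and at 144, 119, 150 and 141 TPM in DSS Tnfr2ko mice. Each DSS-treated mouse was above each water-treated mouse as deposited, though after rescaling the treatments overlapped in Tnfr2ko mice, and the genotypes overlapped. Srsf7, an SR protein with a zinc knuckle, stood at 41.6, 44.5, 50.6 and 45.9 TPM, at 40.2, 52.8, 40.4, 37.2 and 42.3 TPM, at 84.1, 85.3 and 56.0 TPM and at 70.0, 74.9, 79.5 and 75.3 TPM in the same order of groups. The lowest DSS value, in DSS control 3, was close to the highest water value.

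Among hnRNPs the highest mean level belonged to Hnrnpf, which binds runs of G in RNA. It stood at 184, 186, 190 and 167 TPM in water controls, at 164, 216, 212, 173 and 178 TPM in water Tnfr2ko mice, at 246, 274 and 248 TPM in DSS controls and at 255, 249, 297 and 270 TPM in DSS Tnfr2ko mice. The treatments did not overlap as deposited, but did in both genotypes after rescaling (differences 0.14 and 0.15 on the log2 scale), and the genotypes overlapped. Hnrnpa2b1, an RNA-binding protein of the A/B group, varied more, at 131, 163, 89.0 and 135 TPM, at 171, 142, 151, 157 and 250 TPM, at 32.4, 155 and 304 TPM and at 117, 133, 153 and 101 TPM in the same order. The lowest and the highest of the 16 mice were both DSS controls. Hnrnpa3, of the same group, stood at 136, 104, 62.2 and 95.9 TPM, at 174, 129, 141, 88.5 and 72.6 TPM, at 147, 116 and 181 TPM and at 170, 326, 216 and 142 TPM. Its groups overlapped, with 1 DSS Tnfr2ko mouse far above the others.

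**Figure D1:**
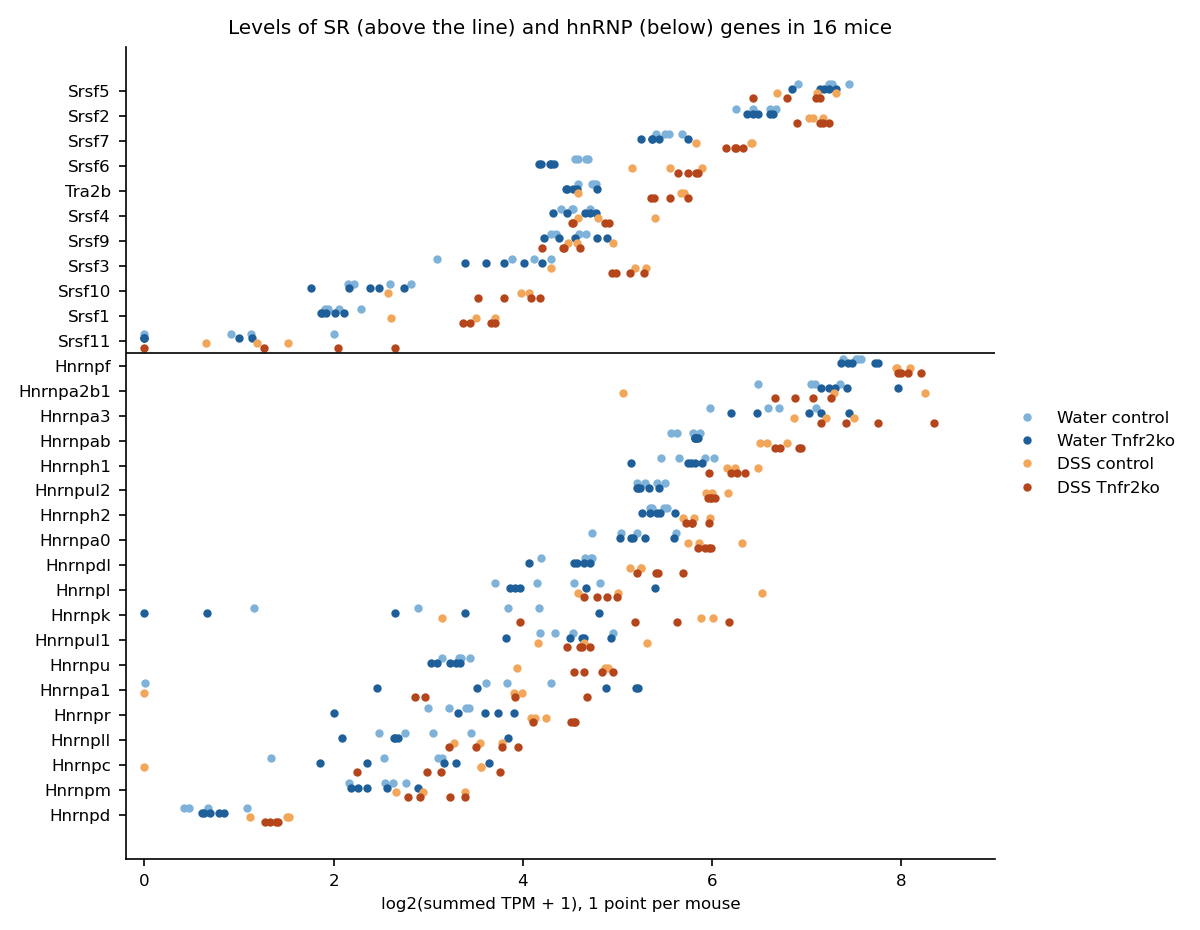
Levels of the 30 members averaging 1 TPM or more across the 16 mice, as log2(TPM + 1) on the horizontal axis, with 1 point per mouse coloured by group and genes ordered by mean level within each family. Srsf2, Hnrnpf, Srsf6 and Hnrnpu show the water-treated mice to the left of all DSS-treated mice as deposited (not for Hnrnpf, nor in Tnfr2ko mice for Srsf2, after rescaling), whereas the points of Srsf5, Hnrnpa2b1 and Hnrnpa1 mix.

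The plot of levels by mouse shows a range from Hnrnpf and Srsf5 down to genes near the limit of detection. Srsf12 stayed at or under 0.318 TPM in every mouse, and Hnrnph3 reached 5.14 TPM in water control 3 and at most 1.13 TPM elsewhere. These 2 genes had a mean below 1 TPM in both tables and were left out of the limma fits, except where no filter was set. Srsf11 and Hnrnpd, the AU-rich element binding protein AUF1, passed that limit after DSS but not in water-treated mice, so that 30 members were tested after DSS and 28 in water-treated mice.

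Sequence was looked up for SR genes with an annotated nonsense-mediated decay isoform that includes a cassette exon skipped by the listed transcript. Only cassettes between coding exons were taken. Whether a cassette holds a stop codon, as a poison exon does, was not checked. The SR genes found were 6: Srsf6, Srsf3, Srsf7, Tra2b, Srsf9 and Srsf11. In GENCODE M21 on GRCm38, an isoform subject to nonsense-mediated decay was annotated for 10 of the 11 SR genes that passed 1 TPM (90.9%), for 9 of 19 hnRNP genes (47.4%) and for 26.8% of all 11264 genes at that level. The median number of annotated transcripts was 8 for these SR genes and 5 for all genes. The listed transcript of Srsf6 joins its exons 2 and 3 across a cassette exon of 268 bases at chr2:162932815-162933082 on the plus strand. That of Srsf3 joins exons 3 and 4 across 456 bases at chr17:29039454-29039909 on the plus strand. That of Srsf7 joins exons 3 and 4 across 460 bases at chr17:80204622-80205081 on the minus strand, and that of Tra2b joins exons 1 and 2 across 276 or, in another isoform, 397 bases, the shorter cassette at chr16:22258986-22259261 on the minus strand. The listed transcript of Srsf9 joins exons 1 and 2 across 358 bases at chr5:115328347-115328704 on the plus strand, and exons 2 and 3 across a second cassette of 90 bases. That of Srsf11 joins exons 3 and 4 across alternative cassettes of 109 bases at chr3:158024123-158024231 and of 117 bases at chr3:158023243-158023359 on the minus strand. Below, 24 bases on each side of the skipping junction are given 5′ to 3′ along the transcript, in the coding sequence, with the 4 bases on each side of the junction in capitals:
Srsf6: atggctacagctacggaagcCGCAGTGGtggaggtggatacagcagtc
Srsf3: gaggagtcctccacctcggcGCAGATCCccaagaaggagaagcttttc
Srsf7: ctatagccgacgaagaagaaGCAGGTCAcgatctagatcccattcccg
Tra2b: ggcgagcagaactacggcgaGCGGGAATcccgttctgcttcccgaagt
Srsf9 (exons 1 and 2): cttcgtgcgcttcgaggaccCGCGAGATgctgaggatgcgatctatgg
Srsf11: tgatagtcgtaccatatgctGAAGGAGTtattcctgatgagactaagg
No isoform that includes a cassette was among the listed transcripts, so inclusion was not measured, and a change in the TPM of a listed transcript can come from the gene or from the choice of isoform, which cannot be told apart here.

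The effect of genotype was asked within each treatment, by limma on log2(TPM + 1) with Benjamini-Hochberg adjustment over all genes tested. After DSS no member of 30 passed an adjusted p of 0.05 (0.00918% of 10899 genes did), and none had an unadjusted p under 0.05 (2.65% of all genes). In water-treated mice no member of 28 passed (0.00905% of 11046 genes did), and 1 had an unadjusted p under 0.05 (5.28% of all genes). At the level of transcripts no member passed in either treatment, of 46 after DSS (0.0159% of 12547 transcripts) and of 42 in water-treated mice (0.0158% of 12661 transcripts). Unadjusted p-values under 0.05 were found for 2 member transcripts after DSS (3.27% of all) and for 1 in water-treated mice (4.98% of all), about the share of all transcripts. The genotypes did not overlap in 0 of 30 member genes after DSS (3.68% of all genes) and in 1 of 42 member transcripts in water-treated mice (1.54% of all transcripts). These p-values measure the spread between the mice of this series.

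The member with a low unadjusted p in water-treated mice was Srsf6, an SR protein studied in skin, which lies on chromosome 2 at positions 162931528 to 162937121. Its level was 22.5, 24.4, 24.8 and 22.9 TPM in water controls and 17.0, 18.5, 18.6, 17.3 and 19.2 TPM in water Tnfr2ko mice, or 23.7 ± 1.12 TPM (SD, n = 4) and 18.1 ± 0.906 TPM (SD, n = 5). All 5 Tnfr2ko mice were below all 4 controls, as is the case in either direction for 1.55% of all genes tested. The difference was -0.37 on the log2 scale (SE 0.08), with an unadjusted limma p of 0.00146, an adjusted p of 0.865, and an exact permutation p of 0.00794, the smallest that 126 splits allow. It therefore did not hold up against correction over all genes. By cage, controls stood at 22.5 to 24.8 TPM and Tnfr2ko mice at 17.0 to 18.5 TPM in cage a. In cage b they stood at 22.9 to 24.4 TPM and at 17.3 to 19.2 TPM. Because the genotypes did not overlap, the sign had to be the same in both cages, so the cages give no further test. After DSS the same gene stood at 46.1, 58.4 and 34.7 TPM in controls and at 52.7, 56.9, 56.2 and 48.9 TPM in Tnfr2ko mice, and the genotypes overlapped (log2 difference 0.23, exact permutation p = 0.286). Whether the effect of genotype differs between treatments was not tested.

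After DSS the member transcripts with a low unadjusted p belonged to Hnrnpa3 and Srsf5. Hnrnpa3 transcript ENSMUST00000111964.7 stood at 147, 109 and 124 TPM in controls and at 166, 256, 207 and 142 TPM in Tnfr2ko mice, with 1 Tnfr2ko mouse below the highest control (log2 difference 0.58, SE 0.22, limma p = 0.0309, adjusted p = 0.999, exact permutation p = 0.0857). Srsf5 transcript ENSMUST00000110356.2 stood at 26.6, 27.8 and 32.2 TPM in controls and at 22.1, 25.8, 12.4 and 13.1 TPM in Tnfr2ko mice (log2 difference -0.69, SE 0.27, limma p = 0.0387, adjusted p = 0.999, exact permutation p = 0.0857). Its groups did not overlap, which held for 4.0% of all transcripts tested after DSS. Without DSS control 3 the unadjusted limma p of these transcripts became 0.0693 and 0.106. In water-treated mice the same transcripts overlapped between genotypes, with 32.2 to 112 TPM against 19.4 to 106 TPM for Hnrnpa3 and 18.1 to 27.3 TPM against 3.59 to 41.1 TPM for Srsf5.

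Tra2a, the paralog of Tra2b, gives a contrast. Both encode transformer-2 proteins that bind GAA-rich exon sequences. Tra2a was listed at or under 0.718 TPM in the 3 DSS controls and at 10.4 to 14.4 TPM in the 4 DSS Tnfr2ko mice (log2 difference 3.46, adjusted limma p = 0.0101, exact permutation p = 0.0286). Its limma call did not hold in 8 of 14 alternatives, with an adjusted p of 0.292 with a pseudocount of 0.1, 0.0719 with no filter, 0.282 with a replicate block, 0.0836 without DSS control 2, and 0.0555, 0.0739, 0.102 and 0.0511 without DSS Tnfr2ko 1, 2, 3 and 4, while the log2 difference was 3.26 to 5.93 over all 14. Tra2b stood at 50.1, 51.3 and 23.0 TPM in the controls and at 40.0, 40.9, 52.9 and 46.0 TPM in the Tnfr2ko mice after DSS, with a log2 difference of 0.19 and a 95% interval of -0.46 to 0.84. In water-treated mice Tra2b stood at 26.3, 26.1, 25.7 and 23.0 TPM against 21.2, 22.8, 26.6, 20.9 and 22.1 TPM, and Tra2a varied from 0.252 to 31.1 TPM over both genotypes.

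Other splicing genes were counted from lists of 7 kinds. After DSS 1 gene of the lists passed the adjusted threshold, Tra2a among 8 SR-related proteins. None of 19 core proteins of the spliceosomal particles, 12 branch point and 3′ splice site factors, 7 kinases and import factors of SR proteins, 13 other hnRNP-type RNA-binding proteins, 6 tissue-restricted regulators and 8 genes of nonsense-mediated decay passed. Unadjusted p-values under 0.05 belonged to 4 of these genes in all, Tra2a, Snrpg, Clk4 and Taf15. Clk4, a kinase of SR proteins, differed by -0.30 on the log2 scale (limma, adjusted p = 1.00). In water-treated mice no gene of the lists passed, and U2surp and Ptbp1 were among those with an unadjusted p under 0.05. Ptbp1, the polypyrimidine tract binding protein, differed by 1.07 (limma, adjusted p = 0.865).

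Levels after DSS were next set beside those of water-treated mice, with no test, because the tables were normalized apart. In control mice the median difference of the 30 members was 0.61 on the log2(TPM + 1) scale, against 0.32 for the 11247 genes averaging 1 TPM or more. Of the 30 members, 26 had a higher mean after DSS (69.7% of all genes), and in 14 members all DSS-treated mice lay above all water-treated mice (31.0% of all genes). No member had all DSS-treated mice below (8.12% of all genes). SR and hnRNP genes had similar medians, 0.61 over 11 genes and 0.60 over 19. In Tnfr2ko mice the members' median was 0.70 against 0.31 for all genes, 26 were higher (66.2% of all genes), 17 lay wholly above (31.4%) and 0 wholly below (10.1%). There the SR median was 0.95 and the hnRNP median 0.64.

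Rescaling all 16 mice together by median-of-ratios factors brought the median of all genes to 0.02 in control mice and 0.00 in Tnfr2ko mice. The members' medians became 0.28 and 0.40, with 23 of 30 higher in each genotype (51.4% and 50.2% of all genes). Wholly above were 6 members in control mice (10.7% of all genes) and 11 in Tnfr2ko mice (17.4%). Wholly below were 1 in control mice (13.9%) and 2 in Tnfr2ko mice (17.8%). The members wholly above in both genotypes under this scaling were 4, Srsf6, Hnrnpu, Hnrnpab and Hnrnpul2, and the member wholly below in both was Srsf5. Hnrnpa2b1 was wholly below in Tnfr2ko mice only. The proliferation markers moved with the members: all 10 were higher after DSS in control mice as deposited, with a median of 0.69, and 8 of 10 were higher after rescaling. Leukocyte markers moved the other way, with 11 of 11 lower and a median of -4.05, and 8 of 9 stromal markers were lower, with a median of -0.97. The part of any of these in the members' levels was not tested.

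**Figure D2:**
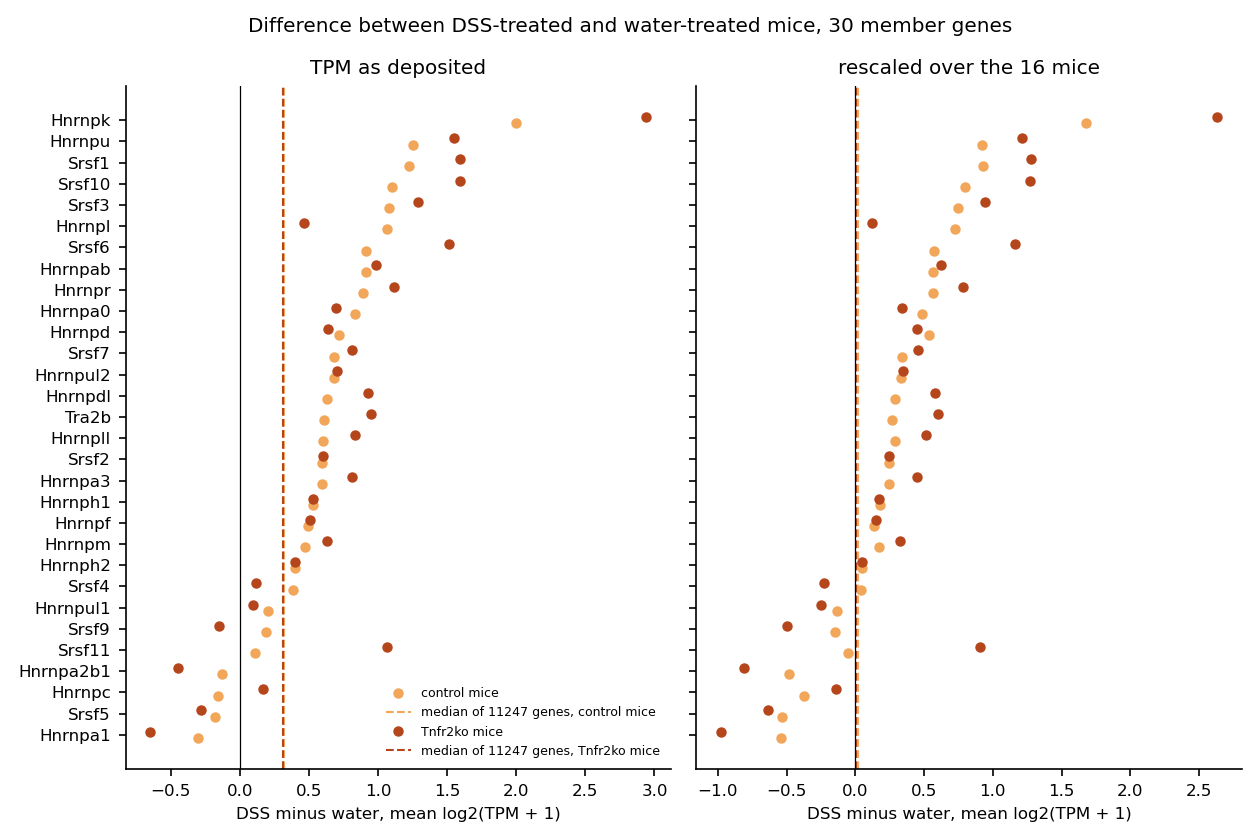
Difference in mean log2(TPM + 1) between DSS-treated and water-treated mice for 30 members, in control and in Tnfr2ko mice, as deposited on the left and after rescaling over the 16 mice on the right. Dashed lines mark the median of 11247 genes, which lies at 0.32 and 0.31 on the left and near 0 on the right, and most members lie to the right of it, with Hnrnpk farthest.

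The largest difference belonged to Hnrnpk, which binds C-rich RNA and DNA. It was listed at 1.24, 13.4, 6.42 and 17.0 TPM in water controls, at 0, 5.30, 9.50, 0.581 and 27.0 TPM in water Tnfr2ko mice, at 58.0, 63.6 and 7.85 TPM in DSS controls and at 14.7, 35.5, 71.6 and 48.6 TPM in DSS Tnfr2ko mice. The difference was 2.00 in control mice and 2.94 in Tnfr2ko mice as deposited, or 1.68 and 2.63 after rescaling. The treatments overlapped in both genotypes, through DSS control 3 and DSS Tnfr2ko 1, the 2 DSS-treated mice of cage c. Without DSS control 3 the difference in control mice was 2.93.

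Hnrnpu, a nuclear scaffold protein that binds RNA and chromatin, did not overlap between treatments. Its level was 7.84, 9.89, 9.03 and 9.21 TPM in water controls, 7.54, 9.07, 8.82, 7.16 and 8.42 TPM in water Tnfr2ko mice, 28.8, 28.3 and 14.3 TPM in DSS controls and 22.3, 24.1, 29.97 and 27.7 TPM in DSS Tnfr2ko mice. The difference was 1.25 in control and 1.55 in Tnfr2ko mice, and 0.92 and 1.21 after rescaling. Srsf1, the founding SR protein, stood at 3.16, 2.77, 2.85 and 3.88 TPM in water controls, at 2.79, 2.64, 3.03, 2.67 and 3.31 TPM in water Tnfr2ko mice, at 10.4, 12.0 and 5.09 TPM in DSS controls and at 9.32, 9.86, 12.0 and 11.7 TPM in DSS Tnfr2ko mice. Its treatments did not overlap as deposited (differences 1.22 and 1.59), and after rescaling they overlapped in control mice (0.93) and not in Tnfr2ko mice (1.28).

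Among the other SR genes the difference in control mice was 1.10 for Srsf10, a repressor of splicing when dephosphorylated, 1.08 for Srsf3, a small SR protein that also acts in mRNA export, and 0.91 for Srsf6. In Tnfr2ko mice these were 1.59, 1.29 and 1.51. Srsf7 differed by 0.68 and 0.81, Tra2b by 0.61 and 0.95, and Srsf2 by 0.60 in both genotypes. Among hnRNPs Hnrnpab differed by 0.91 and 0.98, Hnrnpr by 0.89 and 1.12, and Hnrnpf by 0.49 and 0.51. Each kept its sign after rescaling and was smaller. Then the differences in control and Tnfr2ko mice were 0.79 and 1.27 for Srsf10, 0.74 and 0.94 for Srsf3, and 0.57 and 1.16 for Srsf6. Those of Srsf7 were 0.34 and 0.45, of Tra2b 0.27 and 0.60, and of Srsf2 0.25 in both. Those of Hnrnpab were 0.56 and 0.63, of Hnrnpr 0.56 and 0.78, and of Hnrnpf 0.14 and 0.15. Without DSS control 3 the differences in control mice as deposited were 1.58 for Srsf10, 1.40 for Srsf3, 1.10 for Srsf6, 0.88 for Srsf7, 0.98 for Tra2b and 1.56 for Srsf1. Hnrnpl differed by 1.07 in control mice as deposited with that mouse and by 0.49 without it.

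In each genotype 4 of 30 members were lower after DSS as deposited. Among them in control mice was Hnrnpa2b1, at -0.13 with DSS control 3 and -0.82 without that mouse. Hnrnpa1, a core hnRNP that represses exon inclusion, was listed at 13.3, 18.7, 0.000876 and 11.2 TPM in water controls, at 10.5, 35.8, 36.2, 4.50 and 28.5 TPM in water Tnfr2ko mice, at 5.07e-06, 14.9 and 13.97 TPM in DSS controls and at 24.7, 6.27, 6.82 and 14.2 TPM in DSS Tnfr2ko mice. Its difference was -0.30 in control and -0.65 in Tnfr2ko mice, with wide overlap and with 1 control library near 0 in each treatment. In control mice it was -0.94 without DSS control 3. For Srsf5, whose values are given above, the difference was -0.18 and -0.28 as deposited, with overlap, and -0.53 and -0.64 after rescaling, without overlap. In control mice as deposited it was -0.32 without DSS control 3, and that mouse also turned Hnrnpul1, at 0.20 with it and -0.10 without. Hnrnpc, which binds runs of U, was lower in control mice through 1 library. It was listed at 4.81, 1.53, 7.62 and 7.89 TPM in water controls, at 2.62, 4.12, 8.00, 11.5 and 8.78 TPM in water Tnfr2ko mice, at 10.8, 10.8 and 0 TPM in DSS controls and at 12.6, 6.93, 7.81 and 3.75 TPM in DSS Tnfr2ko mice. Its difference was -0.16 in control mice, with DSS control 3 listed at 0, and 1.03 without that mouse. The difference was 0.17 in Tnfr2ko mice, which became -0.14 after rescaling.

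The 7 other splicing lists had medians in control mice above that of all genes as deposited, where 69.7% of all genes were higher after DSS (51.4% after rescaling). All 19 core proteins of the spliceosomal particles were higher after DSS as deposited (median 0.59), and 15 of 19 were after rescaling (median 0.24). All 8 genes of nonsense-mediated decay were higher (median 0.58), and 7 were after rescaling (median 0.29). Of 11 other hnRNP-type genes 10 were higher (median 0.68) and 9 after rescaling (median 0.36), led by Tardbp, which encodes TDP-43, with 1.69. Of 7 kinases and import factors of SR proteins 6 were higher (median 0.45) and 5 after rescaling (median 0.10), led by Srpk1 with 1.18. Of 8 SR-related proteins 5 were higher under either scaling (median 0.52, and 0.31 after rescaling), with Tra2a lowest at -2.95. Of 6 tissue-restricted regulators 6 were higher (median 0.42) and 4 after rescaling (median 0.09). The 12 branch point and 3′ splice site factors stood at 0.33, close to all genes, with 10 higher as deposited and 6 after rescaling (median -0.01). In Tnfr2ko mice as deposited the median of this list was 0.25, below the 0.31 of all genes. That of the SR-related proteins was -0.19 there, with 3 of 8 higher (66.2% of all genes). After rescaling these medians were -0.07 and -0.46, against 0.00 for all genes. The other lists had medians above that of all genes in Tnfr2ko mice under either scaling.

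DSS control 3 was compared with the other 6 DSS-treated mice gene by gene, as a description. It lay below all of them in 12 of 30 members (24.4% of all genes) and above all of them in 9 (32.9% of all genes). The members below were Hnrnpc, Hnrnpk, Srsf10, Tra2b, Srsf1, Hnrnpu, Srsf3, Srsf6, Srsf7, Hnrnpd, Hnrnpab and Hnrnpdl. Srsf10 was at 4.98 TPM against 10.5 to 17.2 TPM, Srsf3 at 18.6 TPM against 29.8 to 38.4 TPM, and Tra2b at 23.0 TPM against 40.0 to 52.9 TPM. These values lay within the ranges of water-treated mice. Those were 2.39 to 6.04 TPM for Srsf10, 7.51 to 18.6 TPM for Srsf3 and 20.9 to 26.6 TPM for Tra2b. Of the other members below, Hnrnpk also lay within its water range, and Hnrnpc, listed at 0 TPM, lay under it. Srsf6, Hnrnpu, Srsf1, Srsf7, Hnrnpab, Hnrnpdl and Hnrnpd stayed above all water-treated mice in DSS control 3.

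The members above all other DSS-treated mice in that library were Hnrnpl, Hnrnpa2b1, Hnrnpul1, Srsf4, Srsf9, Srsf5, Hnrnpa0, Hnrnpm and Hnrnpul2. Hnrnpl, which binds CA repeats, was at 91.2 TPM against 23.0 to 31.1 TPM, and Hnrnpa2b1 at 304 TPM against 32.4 to 155 TPM. Srsf4 was at 41.2 TPM against 21.9 to 29.2 TPM. SR genes were thus divided, with 6 of 11 lowest and 3 highest in this mouse. Without it the median DSS minus water difference of control mice was 0.61 for all members and 0.88 for SR genes, and 19 members had all DSS controls above all water controls (38.6% of all genes). DSS Tnfr2ko 1 from the same cage was the lowest DSS-treated mouse in 1 member (10.8% of all genes). It could not be the lowest in the 12 members where DSS control 3 was. Among those it was the next lowest for Hnrnpk, Srsf10, Tra2b, Srsf1, Hnrnpu, Srsf7 and Hnrnpdl. It was not the next lowest for Hnrnpc, Srsf3, Srsf6, Hnrnpd and Hnrnpab. How often this held over all genes was not counted, so it is not read as a trait of the members.

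**Figure D3:**
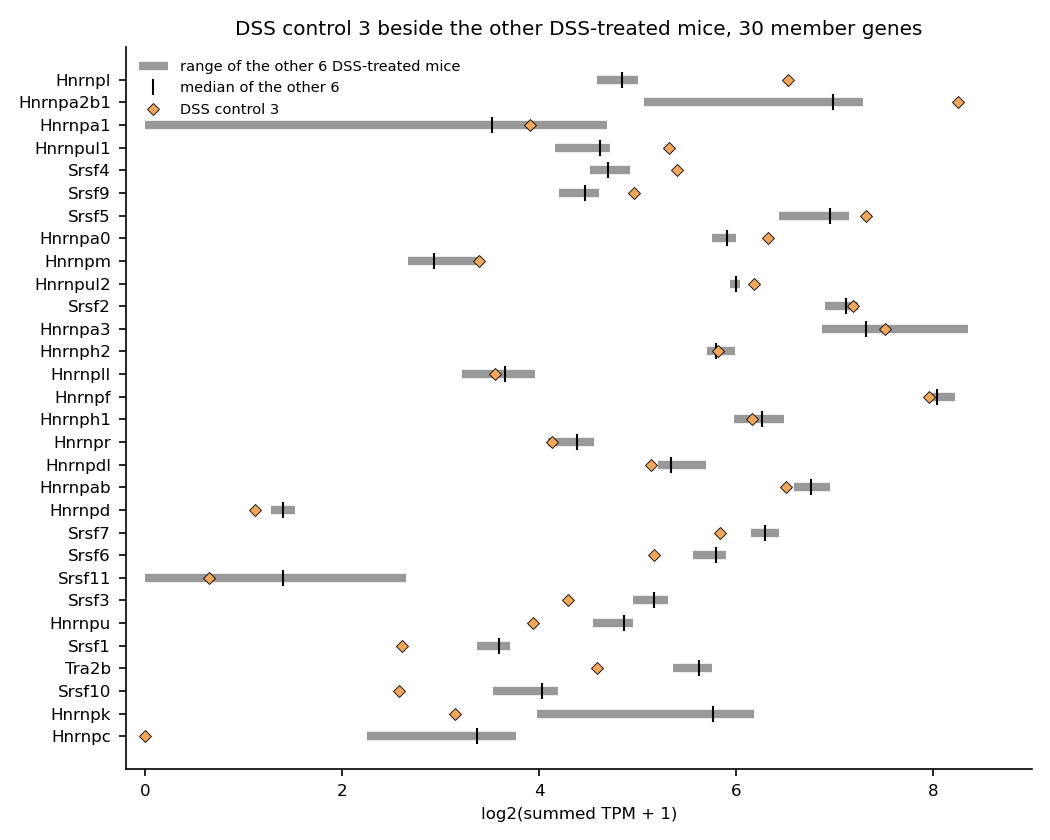
Level of 30 members as log2(TPM + 1) in DSS control 3 (diamonds) beside the range (grey bars) and median (ticks) of the other 6 DSS-treated mice, ordered by the difference. The diamonds of 12 members lie to the left of the bars, from Hnrnpc to Hnrnpdl, and those of 9 members lie to the right, with Hnrnpl and Hnrnpa2b1 farthest.

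DSS control 1 differed in another way. It was the lowest DSS-treated mouse in 9 of 19 hnRNP genes and in 0 of 11 SR genes (19.2% of all genes). Its Hnrnpa2b1 level of 32.4 TPM was the lowest of the 16 mice, and its Hnrnpa1 was listed at 5.07e-06 TPM.

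The spread between mice of each listed transcript was measured as the SD of log2(TPM + 1) about the group means. Its median over the 46 member transcripts after DSS was 0.45, against 0.35 for all 12547 transcripts, and over the 42 in water-treated mice it was 0.45 against 0.38. SR transcripts had medians of 0.38 and 0.23, and hnRNP transcripts of 0.58 and 0.62. An SD above the 90th percentile of all transcripts, 1.11 after DSS and 1.30 in water-treated mice, was found for 11 member transcripts after DSS (10.0% of all transcripts) and for 7 in water-treated mice (10.0%). Of these, 5 transcripts were the same in both tables. Without DSS control 3 the count after DSS was 8 and the median 0.26 for members, 0.18 for SR transcripts and 0.27 for all.

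The most variable member transcript after DSS was Hnrnpa3 ENSMUST00000090792.10 (SD 2.70). It was listed at 1.07e-06, 7.18 and 57.4 TPM in DSS controls and at 4.43, 70.2, 8.60 and 0 TPM in DSS Tnfr2ko mice. In water-treated mice it stood at 24.5, 71.8, 2.41 and 12.0 TPM in controls and at 68.0, 53.6, 61.2, 23.9 and 53.2 TPM in Tnfr2ko mice, with an SD of 1.29, just under the 90th percentile. The other listed transcript of the gene, ENSMUST00000111964.7, never fell below 19.4 TPM.

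Srsf5 transcript ENSMUST00000110352.9 was near 0 in many mice and high in a few. It was listed at 18.7, 27.2, 8.34 and 12.8 TPM in water controls and at 0, 2.17e-06, 21.7, 45.7 and 0 TPM in water Tnfr2ko mice (SD 2.15). After DSS it was listed at 0, 0.00765 and 1.38 TPM in controls and at 0, 0.844, 30.1 and 0 TPM in Tnfr2ko mice (SD 1.89). High and low values occurred within the same group in both treatments.

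Hnrnpf held 3 of the most variable transcripts. Transcript ENSMUST00000167182.7 was listed at 0.00438, 0.00086, 0.925 and 0.000801 TPM in water controls and at 0.000505, 35.2, 1.78, 36.6 and 0.0154 TPM in water Tnfr2ko mice (SD 2.02). After DSS it was listed at 17.9, 11.01 and 2.72e-07 TPM in controls and at 0.381, 4.10, 12.2 and 0.0294 TPM in Tnfr2ko mice (SD 1.96). It thus ran from near 0 to more than 10 TPM within 3 of the 4 groups. Transcript ENSMUST00000180020.7 was listed at 21.5, 0.0698, 28.0 and 1.76 TPM and at 43.5, 0.000159, 13.4, 30.7 and 24.01 TPM in the water-treated groups (SD 2.25, the largest of the members in that table). Transcript ENSMUST00000035493.13 was listed at 23.9, 65.6, 23.3 and 4.85 TPM and at 4.93, 36.0, 72.8, 0.444 and 34.2 TPM there (SD 2.00). Their sum over all 5 listed transcripts had an SD of 0.14 in water-treated and 0.10 in DSS-treated mice.

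The single listed transcripts of Hnrnpk and Hnrnpa1 were also among the most variable, with SDs of 1.73 in water-treated mice for Hnrnpk and of 1.59 in both tables for Hnrnpa1. Hnrnph2, a relative of Hnrnpf, had transcript ENSMUST00000059297.5 at 8.77 TPM in water Tnfr2ko 3 and at 14.03 TPM in DSS Tnfr2ko 3, and at most 0.00756 TPM in the other mice (SD 1.51 after DSS). Just inside the 90th percentile after DSS was Hnrnph2 ENSMUST00000050331.12 with an SD of 1.11, and just outside it was Hnrnpll ENSMUST00000184635.7 with 1.07.

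Reads of 75 bases can be assigned to a transcript only where it differs from all others, so each listed transcript was cut into windows of 31 bases, and the share found in no other annotated transcript was counted. That share was 5% or less for 27 of the 49 member transcripts and 0 for 16. After DSS all 11 member transcripts above the 90th percentile of spread were among the 26 tested with a share of 5% or less (42.3%, against 17.9% of 4898 transcripts of all genes with such a share). None of the 20 members with a larger share was above it (4.94% of 7649 transcripts of all genes). In water-treated mice 7 of 25 were above it (28.0%, against 16.9% of all) and 0 of 17 (5.37% of all). Without DSS control 3 the counts after DSS were 8 of 26 (30.8%, against 17.9% of all) and 0 of 20. The median SD of members was 1.03 against 0.34 after DSS and 0.78 against 0.24 in water-treated mice. Over transcripts of all genes it was 0.52 against 0.29 after DSS and 0.68 against 0.30 in water-treated mice. Without DSS control 3 it was 0.66 against 0.16 for members after DSS, and 0.43 against 0.22 for all. The member with the smallest spread after DSS was Hnrnpul2, a paralog of Hnrnpu, with an SD of 0.08 and 80.9% of its windows in no other transcript.

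**Figure D4:**
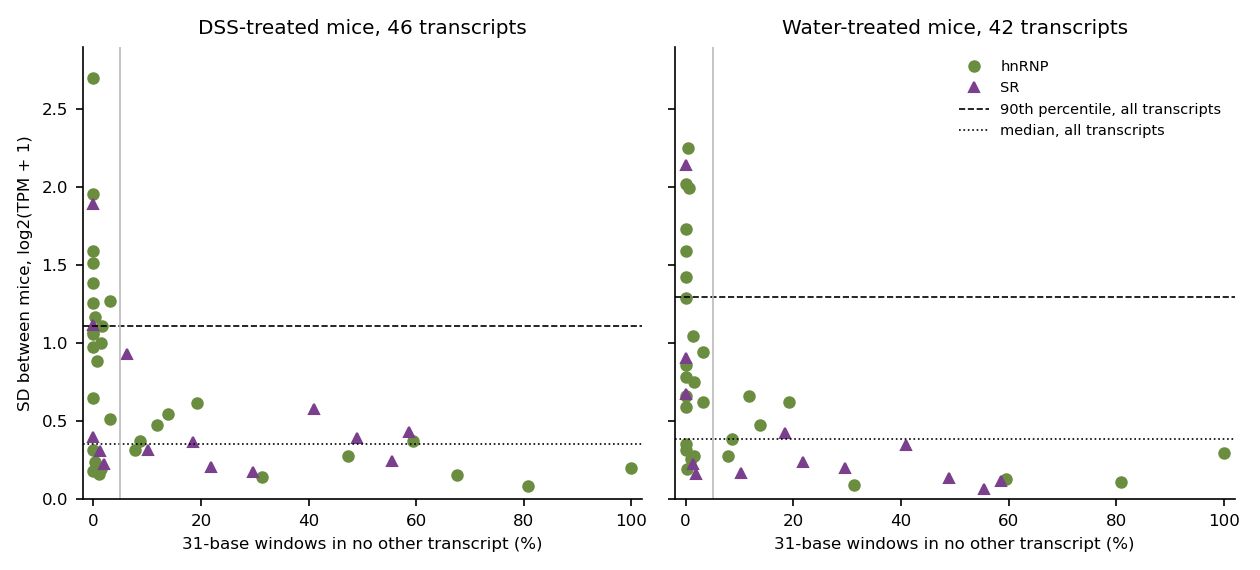
SD between mice of log2(TPM + 1) for each member transcript against the share of its 31-base windows found in no other annotated transcript, after DSS (46 transcripts, left) and in water-treated mice (42, right). Every point above the dashed 90th percentile of all transcripts lies left of the grey line at 5%.

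The plot of spread against window share also shows members with few windows of their own and a small SD, so a low share did not always go with a large spread. Shared windows came from different places. For Hnrnpa3 only 2.25% and 7.45% of the windows of its 2 listed transcripts were absent from other genes, for Hnrnpa1 51.7%, and for Hnrnpk 56.1%. For Hnrnpll all windows were absent from other genes and the sharing was between its own isoforms. The TPM of Hnrnpa3, Hnrnpa1 and Hnrnpk and of the single Hnrnpf transcripts are to that extent uncertain, and how reads were divided between the copies was not tested.

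In the 10 genes with several listed transcripts, the sum over transcripts varied less than the most variable of them in 9 of 10 genes after DSS and in 10 of 10 in water-treated mice. The median SD of the sums was 0.24 after DSS and 0.31 in water-treated mice, against 1.19 and 0.86 for the most variable transcripts. Hnrnpl was the exception after DSS, with an SD of 0.66 for the sum and 0.65 for the more variable transcript. For Hnrnpr only 1 transcript was tested in each table. The largest SD among a gene's own transcripts was taken, so a smaller SD of the sum says little. The sum varied more than the least variable transcript in Hnrnpa2b1, Hnrnpa3, Hnrnpl and Srsf5 after DSS. In water-treated mice it did so in Hnrnpa2b1 and Hnrnph1. In 9 of the 10 genes the listed transcripts have the same coding sequence and differ in untranslated parts only. In Hnrnpf, transcript ENSMUST00000180341.1 made up 51.0% to 87.2% of the gene's TPM over the 16 mice. In Srsf5, transcript ENSMUST00000094693.10 made up 59.0% to 96.9%, and ENSMUST00000110352.9 made up 0% to 28.8%.

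**Figure D5:**
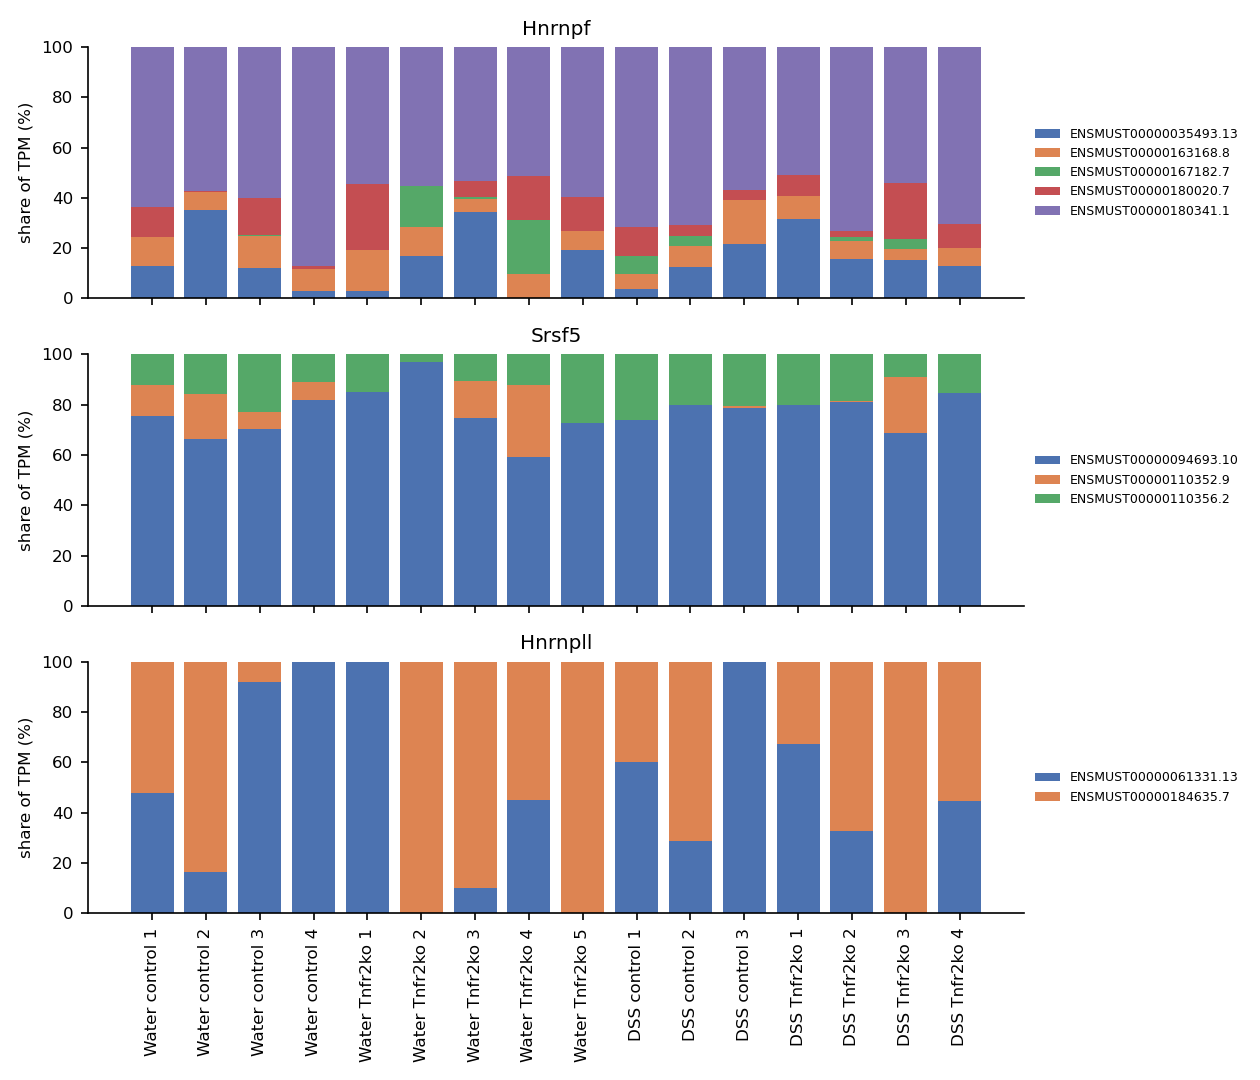
Share of each gene's listed TPM taken by each listed transcript, with 1 bar per mouse, for Hnrnpf, Srsf5 and Hnrnpll. In Hnrnpf and Srsf5 the same transcript is the largest in every mouse, and in Hnrnpll the share of ENSMUST00000061331.13 runs from 0% to 100%.

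Hnrnpll, which is known for the splicing of Ptprc (CD45) in lymphocytes, was the gene whose listed transcripts differ in coding sequence. They use splice sites 1 base apart at the junction of exons 4 and 5 on the minus strand of chromosome 17. Exon 4 ends at position 80049806 in ENSMUST00000061331.13 and at 80049807 in ENSMUST00000184635.7, and exon 5 starts at 80048860 and at 80048861. The sequences around this junction are shown because they are what separates the coding sequences, 5′ to 3′ along the transcript, with 4 bases on each side of the first transcript's junction in capitals:
ENSMUST00000061331.13: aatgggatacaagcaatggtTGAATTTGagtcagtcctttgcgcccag
ENSMUST00000184635.7: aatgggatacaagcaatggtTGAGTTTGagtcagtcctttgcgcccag
The stretches differ by A24G, counted from 1 at the 5′ end of the stretch printed, with the base of ENSMUST00000061331.13 given before the position. The transcript ENSMUST00000061331.13 was listed at 3.49, 1.64, 4.19 and 5.77 TPM in water controls, at 5.25, 0, 1.36, 2.44 and 0 TPM in water Tnfr2ko mice, at 7.67, 2.48 and 10.7 TPM in DSS controls and at 8.56, 2.72, 0 and 6.48 TPM in DSS Tnfr2ko mice. The other transcript was listed at 3.79, 8.28, 0.376 and 0 TPM, at 0, 5.29, 12.0, 2.97 and 3.25 TPM, at 5.13, 6.18 and 4.28e-09 TPM and at 4.16, 5.59, 10.3 and 7.99 TPM. Where one was at or near 0 the other was not, in every group. The gene's sum had an SD of 0.30 after DSS and of 0.56 in water-treated mice.

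The promoters of the members other than Hnrnpll and Hnrnpul2 were searched on either strand for 4 short motifs. They ran from 250 bases before to 50 after each annotated start in RefSeq on GRCm38.p6. Some genes had several starts, and their promoters can overlap, as in Srsf4, so the counts are of promoters and not of genes. Of the 32 members 30 had such promoters, 42 in all, with a median of 67.8% G and C against 52.7% for all 32851 promoters. GGGCGG, the core of the GC box, was found in 35 of 42 (83.3%), against 62.0% of 10890 promoters of genes averaging 1 TPM or more and 35.7% of all. CCAAT was found in 21 (50%, against 37.6% and 37.4%), ACTTCCG, an ETS-type core, in 6 (14.3%, against 13.3% and 6.42%) and TATAAA in 4 (9.52%, against 7.82% and 13.6%). A match is a description of letters and not of binding.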

How the data were processed

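The labels gave each mouse's group, replicate number, cage and sex. The authors quantified stranded libraries with kallisto and sleuth per the submitters' processing notes, which also name mm10, and the transcript release is not given in the sources used here. The authors deposited 2 tables, one per treatment and normalized apart, with TPM per mouse for principal transcripts (APPRIS classes 1 to 5). The listed TPM of a mouse summed to between 487469 and 861109. Each deposited table had 29373 lines, and 385 repeated lines with equal values were dropped. The deposited mean natural log of estimated counts was used for depth only. Columns of the authors' own comparisons (p-values, q-values, test statistics and a log2 ratio) were not used. No column of another sample was present.

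TPM were summed per gene symbol. Genotypes were compared within a table with limma 3.58.1 (R 4.3.3), after adding a pseudocount of 1 and taking log2, with the variance trend. Features averaging 1 TPM or more in the table were kept, with Benjamini-Hochberg adjustment and a threshold of 0.05. Fold changes on this scale understate those of low genes. For single values an exact permutation test over mice was used (two-sided). Tests between tables were not run. Some items are not reported here. The fit was tested on simulated data made from the tables' own means and spreads with 200 features changed. Tests for counts were not used here, and the number of mice limits the precision.

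Alternatives were a pseudocount of 0.1, no filter or a mean of at least 5 TPM, median-of-ratios rescaling, the same summed TPM in every mouse, quantile normalization, a replicate block, cage as a covariate, and leaving out each mouse in turn. Same-numbered mice are different animals. Windows, positions and isoform classes are from GENCODE M21 on GRCm38, in which all 49 member transcripts were found, 46 with the same version. Promoters are from RefSeq.

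Values in every mouse are given for the 3 members of each family with the highest mean level, members with an unadjusted p under 0.05 for genotype, the 5 most variable member transcripts of each table, and the 3 members with the highest and the 3 with the lowest DSS minus water difference in control mice. Tra2a, Tra2b and the Hnrnpll transcripts were added for comparison. The members, lists and tests were chosen with earlier results of these data known. Python 3.11.15, pandas 2.3.3, numpy 2.4.6, scipy 1.17.1 and matplotlib 3.10.9 were used.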

Additional observations from a re-analysis of the deposited data

Results flagged for a closer look

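Within groups of 4 or 5 mice, 5 of 90 combinations of member and group had a mouse whose gap to its nearest neighbour took up an unusually large part of the group's range. By chance about 1 in 20 groups is marked in this way, or 4.5 here, so the number of marked values is close to that count. Hnrnpr, an RNA-binding protein of the hnRNP R and Q group, was lowest in DSS Tnfr2ko 2, at 16.3 TPM against 21.8 to 22.5 TPM in the other mice of the group, a gap of 0.904 of the range. Hnrnpdl, a relative of Hnrnpd, was lowest in water control 3, at 17.3 TPM against 24.3 to 25.6 TPM (0.867 of the range), and in water Tnfr2ko 2, at 15.7 TPM against 22.2 to 25.2 TPM (0.735 of the range). Hnrnpa1 was lowest in water control 3, at 0.000876 TPM against 11.2 to 18.7 TPM (0.839 of the range). Hnrnph1, a close relative of Hnrnpf, was lowest in water Tnfr2ko 2, at 34.3 TPM against 52.6 to 58.6 TPM (0.7997 of the range). Groups of 3 mice, the DSS controls, were not examined in this way.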

How the results depend on the processing

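No member was called for genotype in any of the 4 fits, under any alternative or without any 1 mouse (0 to 0 calls), and the lowest adjusted limma p of a member was 0.388. Of the 8 results that answer a comparison, 4 of 104 alternative values moved and 0 reversed. The members' median DSS minus water difference moved from 0.61 to 0.28 in control mice and from 0.70 to 0.40 in Tnfr2ko mice with median-of-ratios rescaling, and to 0.91 in Tnfr2ko mice with the same summed TPM. The count of members above the 90th percentile of spread after DSS moved from 11 to 7 with a pseudocount of 0.1. Leaving out 1 mouse gave medians of 0.59 to 0.65 in control and 0.65 to 0.76 in Tnfr2ko mice, and spread counts of 8 to 13 after DSS and 6 to 8 in water-treated mice. Over all features, limma called 1 gene after DSS, Tra2a, which lost its call in 8 of 14 alternatives (0 to 3 genes called over the alternatives), 1 in water-treated mice (0 to 4), 2 transcripts after DSS (0 to 9) and 2 in water-treated mice (0 to 7). Srsf6 in water-treated mice kept an unadjusted limma p of 0.000402 to 0.0109 in 16 of 16 alternatives. A replicate block gave 0 member calls and 0 calls in all in each of the 4 fits, and Srsf6 had a log2 difference of -0.39 (limma, adjusted p = 0.802). The numbers do not pair the mice: deviations of same-numbered mice correlated at a mean r of -0.13 over 3 pairs after DSS and 0.04 over 4 pairs in water-treated mice. Depth limits the low members, such as Srsf11 and Hnrnpd.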
